A study of Mus musculus with 18 samples.

Results

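The major urinary protein genes considered here were Mup1, Mup3, Mup7, Mup9, Mup11, Mup12, Mup16, Mup17, Mup20 and Mup21, 10 rows of a table of 16245 genes measured by RNA sequencing of mouse liver. They were chosen by name, and several of them because they weighed most on the axis that set GDF15-treated livers apart in earlier work on these same counts. Differences between GDF15-treated mice and either control group are therefore given for the 10 genes as descriptions, without a test. No threshold was used to choose them. The table held 12 further rows named Mup with a number, which are not members. All 10 members had at least 10 estimated counts in at least 6 of the 18 libraries.

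Major urinary proteins are small secreted lipocalins, barrel-shaped carriers of hydrophobic molecules. Mouse hepatocytes make them in very large amounts, the kidney passes them into urine, and there they bind and release volatile scent molecules. Adult males make more of them than females, because the pulsed secretion of growth hormone in males acts through the growth hormone receptor and the transcription factor STAT5B in hepatocytes, with androgens, thyroid hormone and glucocorticoids also contributing. Mup20 encodes darcin, a male-specific protein that itself acts as a pheromone.

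All groups consisted of wild-type mice of the strain labelled C57BL/6, males on the C57BL/6J background according to the methods of the study, that were single-housed at about 29 °C and fed a NASH diet, rich in fat and fructose, from 8 weeks of age. In the Vehicle group, 6 mice received vehicle, in the GDF15 group 6 mice received recombinant GDF15 subcutaneously once a day in the morning, and in the PairFed group 6 mice were given the amount of food that GDF15-treated mice had eaten on the preceding day. GDF15 is a circulating cytokine that reduces food intake through a receptor in the hindbrain, so the PairFed group addresses the part of a difference that goes with eating less. The labels list doses from 0.3 to 5 nmol per kg without saying which of them these mice received, and the text and a figure legend of the study differ on it. Library totals ranged from 16508864 to 35301853 estimated counts, and all 6 hepatocyte markers examined were detected in every group.

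All 22 Mup genes of the annotation lay in one cluster at chr4:59956804-62150863 (GRCm38), and all 10 members were on the minus strand. In genomic order the members were Mup7 at chr4:60066469-60070475, Mup9 at chr4:60418046-60421952, Mup1 at chr4:60498012-60501960, Mup11 at chr4:60658466-60662411, Mup12 at chr4:60737383-60741326, Mup16 at chr4:61515592-61519531, Mup17 at chr4:61591929-61595871, Mup20 at chr4:62050234-62054158, Mup3 at chr4:62083476-62087342 and Mup21 at chr4:62147932-62150863. Coding sequences joined at 95% identity or more formed 1 group of 16 genes, which held 7 members: Mup1, Mup7, Mup9, Mup11, Mup12, Mup16 and Mup17. Identity among these 7 members ran from 98.3% to 99.6%. The other 3 members stood apart from the group, with Mup20 at 90.1% to 91.3%, Mup21 at 83.6% to 84.9% and Mup3 at 82.1% to 83.5% identity to its genes. Mup3 and Mup21 were 94.7% identical to each other.

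A window of 60 coding bases without gaps was chosen because it varied most among the members, at 25 positions. Even there little separates the 7 near-identical members, which bears on every single-gene value that follows. For the other 3 members the window shows more difference than the coding sequence as a whole. The window is read 5′ to 3′ on the coding strand of GRCm38 (GENCODE M21), and capitals mark bases that differ from Mup7.
Mup7 and Mup17: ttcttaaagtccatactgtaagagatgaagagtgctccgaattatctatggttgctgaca
Mup9 and Mup16: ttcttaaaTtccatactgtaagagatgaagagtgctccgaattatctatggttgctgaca
Mup1, Mup11 and Mup12: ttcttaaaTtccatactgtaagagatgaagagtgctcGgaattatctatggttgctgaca
Mup20: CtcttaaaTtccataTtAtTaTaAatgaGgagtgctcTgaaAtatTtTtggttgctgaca
Mup21: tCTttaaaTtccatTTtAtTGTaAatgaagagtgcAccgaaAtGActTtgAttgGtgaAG
Mup3: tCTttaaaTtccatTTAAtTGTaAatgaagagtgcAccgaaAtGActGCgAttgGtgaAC

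The window spans coding bases 212 to 271 in Mup7. Within it Mup20 differed from Mup7 at 12 positions, Mup21 at 19 and Mup3 at 21, whereas no near-identical member differed at more than 2. Whole coding sequences of the members were also aligned jointly, with gaps counted as differences. There Mup12 differed from Mup7 at 4 positions, Mup9 at 5, Mup1 at 6, Mup16 and Mup17 at 7 each and Mup11 at 12. Mup20 differed at 58, Mup21 at 92 and Mup3 at 103. The percent identities above come from pairwise alignments, in which Mup11 differed from Mup7 at 9 positions, Mup20 at 54, Mup21 at 89 and Mup3 at 99.

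Reads were 50 bases long in each direction. Of the 50-base words of each transcript, 3.64% to 21.9% occurred in no transcript of another gene for the 7 near-identical members, against 49.5% for Mup20, 80.7% for Mup21 and 84.4% for Mup3. The counting tool divided shared reads between genes by a statistical estimate, so single values within the near-identical group are uncertain. Values summed over that group are less affected, and Mup20, Mup3 and Mup21 are better resolved.

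Upstream, RefSeq gave promoter windows (GRCm38.p6, 250 bases before to 50 after each start) for 6 members, Mup3, Mup7, Mup9, Mup11, Mup17 and Mup21. Mup1, Mup12, Mup16 and Mup20 had no entry. The STAT5 motif TTCNNNGAA, searched on both strands because growth hormone acts through STAT5, was found in 0 of these 6 windows and in 8.30% of 32851 promoters. A shared TATA-like run, TATATAAGG on the gene strand, was chosen after the sequences had been seen and was present in 5 of the 6 windows and in 0.247% of all promoters. The windows around it are shown because the stretch is shared by members of the near-identical group and by the more distant Mup3 and Mup21, and capitals mark the run.
Mup11 at chr4:60662389-60662418, minus strand: aaacccgctgaacccagagagTATATAAGG
Mup9 at chr4:60421975-60422004, minus strand: aaccccgctgaacccagagagTATATAAGG
Mup3 at chr4:62087320-62087349, minus strand: aagtccactgaaaccagagagTATATAAGG
Mup21 at chr4:62150841-62150870, minus strand: aagcccactgaaaccagagagTATATAAGG

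Mup17 carried the same 30 bases as Mup11, at chr4:61595849-61595878. No match was present in the window of Mup7. The steroid receptor core motif AGAACA was found in 2 of the 6 windows, those of Mup3 and Mup21, and in 19.0% of all promoters. The TATA box letters TATAAA, searched on both strands as were the others, were found in 0 of the 6 and in 13.6% of all promoters. A C/EBP site, TTGCNNAA, was found in 0 of the 6 and in 10.8% of all promoters. These are matches of letters only.

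**Figure D1:**
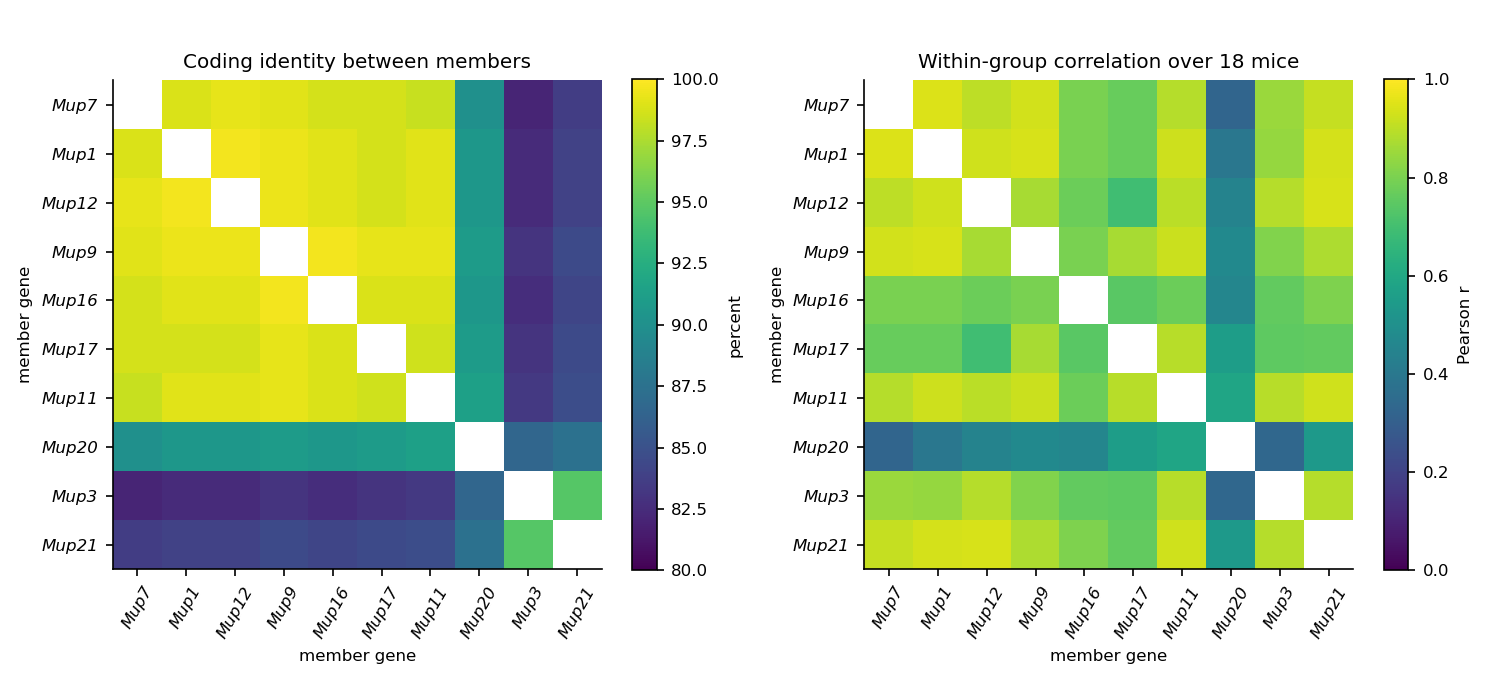
Left, percent coding identity between each pair of members. Right, Pearson r between the same pairs over 18 mice after group means were removed from log2(normalized count + 1). The 7 near-identical members form the bright block on the left, and Mup20 forms the dark row on the right, with r from 0.33 to 0.59.

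Levels between genes were compared as normalized counts per kilobase of transcript, where a normalized count is an estimated count divided by the size factor of its library. In vehicle livers Mup20 was the highest member at a mean of 165883 per kilobase, followed by Mup3 at 50274. All other members lay far lower, from Mup7 at 2864 down to Mup12 at 83.4. The values of Mup20, Mup3 and Mup7 did not overlap in vehicle livers, and each lower neighbour in the order overlapped with the next. The order in pair-fed livers began with the same 3 genes, at 183659, 56293 and 7294 per kilobase. In GDF15-treated livers it began with Mup3 at 121588, ahead of Mup20 at 98579 and Mup7 at 87603. Mup3 exceeded Mup20 in 5 of 6 GDF15-treated mice, and the ranges of these 3 genes overlapped with their neighbours there.

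Mup7 belongs to the near-identical group. Its normalized count was 359 at the lowest, 979 at the median and 9405 at the highest in vehicle mice. In pair-fed mice these values were 334, 6199 and 16332, and in GDF15-treated mice they were 8974, 46223 and 294185. In 5 of 6 GDF15-treated mice Mup7 exceeded every vehicle mouse, and in 5 of 6 every pair-fed mouse. The fitted log2 fold change was 4.93 (SE 1.00) for GDF15 against vehicle and 3.59 (SE 1.00) against pair-fed, and the former corresponds to 30.6-fold.

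Mup1 and Mup12 lay below Mup7 in every group and moved in the same direction. Mup1 ranged from 99.0 to 654 normalized counts in vehicle mice, with a median of 185, and from 804 to 13110 in GDF15-treated mice, with a median of 2016. It was 166 to 931, with a median of 470, in pair-fed mice. Its vehicle and GDF15 values did not overlap, and its log2 fold change was 3.71 (SE 0.66) against vehicle and 2.89 (SE 0.66) against pair-fed. Mup12 had a median of 31.4 in vehicle mice, 78.6 in pair-fed mice and 380 in GDF15-treated mice, with highest values of 198, 247 and 4651. Its log2 fold change was 3.83 (SE 0.93) and 3.41 (SE 0.93) in the same 2 comparisons.

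Mup11 had the second highest level of the near-identical members in GDF15-treated mice. Its normalized count ran from 406 to 4934 in vehicle mice, from 556 to 7748 in pair-fed mice and from 2791 to 60740 in GDF15-treated mice, with medians of 733, 1589 and 11345. The groups overlapped, since 1 vehicle mouse and 1 pair-fed mouse reached into the GDF15 range. Its log2 fold change was 3.46 (SE 0.79) against vehicle and 2.93 (SE 0.79) against pair-fed.

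The remaining near-identical members were Mup16, Mup9 and Mup17. Mup16 had medians of 67.7 in vehicle, 126 in pair-fed and 572 in GDF15-treated mice, and its lowest GDF15 value of 268 lay above the highest vehicle value of 170. Its log2 fold change was 3.18 (SE 0.66) against vehicle and 2.34 (SE 0.66) against pair-fed. Mup9 had medians of 337, 580 and 1745, and log2 fold changes of 2.93 (SE 0.62) and 2.28 (SE 0.62). Mup17 was the least changed of the near-identical members, with medians of 1137, 2253 and 6367. Its log2 fold change was 1.99 (SE 0.65) and 1.61 (SE 0.65), and only 3 of 6 GDF15-treated mice exceeded every vehicle mouse.

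Mup3 was the clearest case among the abundant members. Its normalized count was 33250 to 85720 in vehicle mice, with a median of 41573, and 37127 to 85440 in pair-fed mice, with a median of 52955. In GDF15-treated mice it was 98118 to 169864, with a median of 107652. All 6 GDF15-treated mice lay above all 12 control mice. The difference was smaller than for each near-identical member, at a log2 fold change of 1.27 (SE 0.27) against vehicle and 1.11 (SE 0.27) against pair-fed.

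Mup21, the closest relative of Mup3 among the members, differed less than Mup3. It ranged from 868 to 2508 in vehicle mice, from 1045 to 2401 in pair-fed mice and from 1394 to 4765 in GDF15-treated mice, with medians of 1190, 1786 and 2015. Only 2 GDF15-treated mice exceeded all mice of either control group. Its log2 fold change was 0.79 (SE 0.33) against vehicle and 0.48 (SE 0.33) against pair-fed.

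Mup20, the gene of the pheromone darcin, differed in the opposite direction. Its normalized count was 108329 to 188563 in vehicle mice, with a median of 161884, and 90229 to 249849 in pair-fed mice, with a median of 160629. In GDF15-treated mice it was 53542 to 114801, with a median of 100380. In 4 of 6 GDF15-treated mice Mup20 was below every vehicle mouse, and in 2 of 6 below every pair-fed mouse. The log2 fold change was -0.75 (SE 0.21) against vehicle and -0.90 (SE 0.21) against pair-fed.

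Across the family, 9 of 10 members were fitted higher in GDF15-treated mice than in vehicle mice and 9 of 10 higher than in pair-fed mice, Mup20 being the exception in both. These comparisons share the same GDF15-treated mice. The median log2 fold change of the 10 members was 3.05 against vehicle and 2.31 against pair-fed, beside a median of 0.01 over 13207 genes in each. Values did not overlap between GDF15 and vehicle for 3 members, Mup1, Mup3 and Mup16, all higher with GDF15, where 6.37% of 13207 genes did not overlap in that direction. Against pair-fed this held for Mup3 alone, where 5.29% of genes did so. Since the members were chosen on this contrast, nothing is read from those counts.

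**Figure D2:**
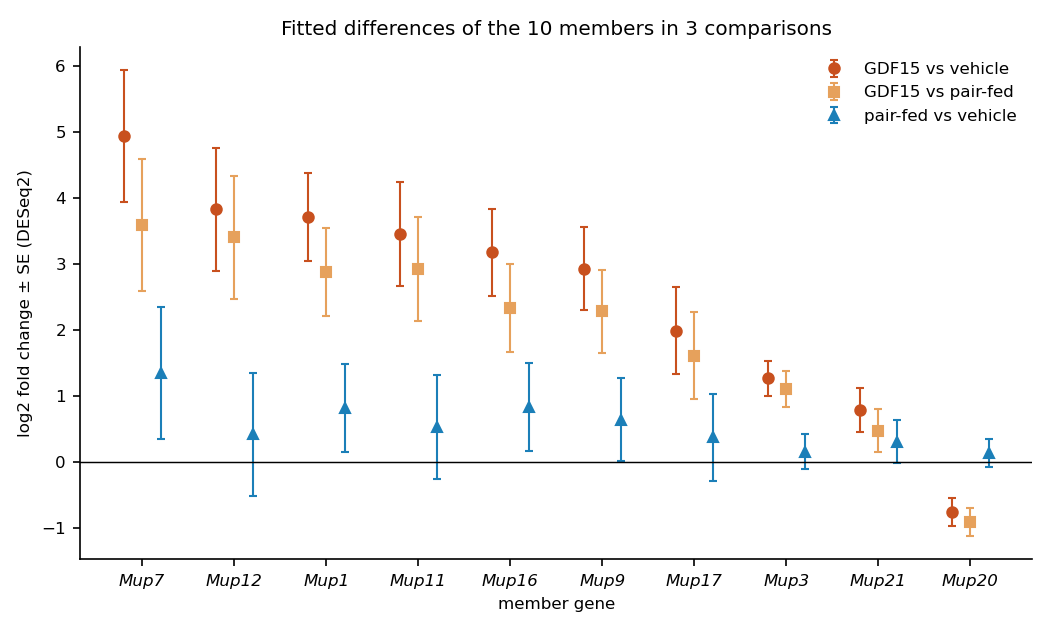
Fitted log2 fold changes (points) with SE (bars) for the 10 members in 3 comparisons of 6 against 6 mice. Mup7 is the highest at 4.93 for GDF15 against vehicle and Mup20 lies below 0 in both GDF15 comparisons, while the pair-fed against vehicle points run from 0.15 to 1.35.

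Summed over the 10 members, the level in GDF15-treated mice overlapped with both control groups. The summed normalized count was 147100 to 272365 in vehicle mice, 160500 to 337857 in pair-fed mice and 180313 to 688384 in GDF15-treated mice, with medians of 206953, 220892 and 287415. Mean log2(sum + 1) was 0.52 higher with GDF15 than with vehicle and 0.35 higher than with pair-feeding, next to SDs of 0.69 in the GDF15 group, 0.33 in the vehicle group and 0.41 in the pair-fed group. The members took 0.747% to 1.30% of all counts in vehicle libraries and 0.837% to 2.99% in GDF15 libraries.

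The makeup of that sum differed as well, which is a description only, since several members were chosen on the GDF15 axis. Size and makeup both depend on the rows chosen. Against vehicle, the sum of all 22 Mup genes was 1.82-fold higher with GDF15, beside 1.43-fold for the 10 members. Mup20 supplied 59.5% to 81.8% of the counts of the 10 members in vehicle mice and 56.2% to 81.2% in pair-fed mice, but 16.7% to 43.6% in GDF15-treated mice. No GDF15-treated mouse overlapped with a control mouse in this share. Mup7 supplied 0.182% to 3.45% in vehicle mice, 0.170% to 6.25% in pair-fed mice and 4.98% to 42.7% in GDF15-treated mice. Mup3 supplied a mean of 22.9% ± 4.91 (SD, n = 6) in vehicle, 23.8% ± 6.73 in pair-fed and 40.9% ± 10.9 in GDF15-treated mice. The ratio of Mup3 to Mup20 counts, both of them distinct in sequence, was 0.206 to 0.529 in vehicle, 0.177 to 0.608 in pair-fed and 0.932 to 1.92 in GDF15-treated mice. Such a ratio within a library does not depend on the scaling between libraries, and it does not say which of the genes differed.

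**Figure D3:**
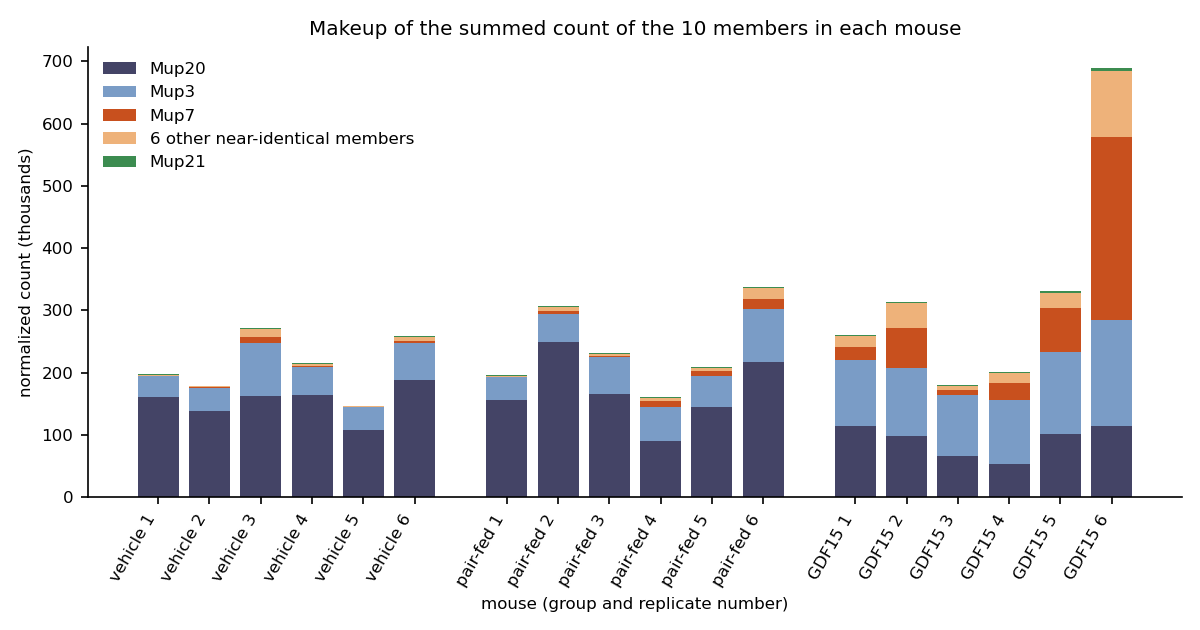
Stacked normalized counts of the 10 members in each of 18 mice. Mup20 makes up most of every vehicle and pair-fed bar and 16.7% to 43.6% of the GDF15 bars, where Mup3 and Mup7 take a larger share, and GDF15 replicate 6 stands far above the others at 688384.

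Without Mup20, the sum of the other 9 members was 36025 to 110383 in vehicle, 40613 to 120927 in pair-fed and 114430 to 573583 in GDF15-treated mice. It was 1.93 higher on the log2 scale with GDF15 than with vehicle, or 3.82-fold, and 1.61 higher than with pair-feeding, or 3.05-fold. All 6 GDF15-treated mice exceeded all vehicle mice, and 5 of 6 exceeded all pair-fed mice. The sum of all 16 near-identical Mup genes, which depends less on how their shared reads were divided, was 3.20-fold higher with GDF15 than with vehicle and 2.47-fold higher than with pair-feeding. For the 7 members of that group alone the log2 differences were 3.96 and 2.79. Most counts of the 16 genes were assigned to Mup22, which is no member and has no 50-base word of its own. It received 82.3% to 90.4% of them in vehicle mice and 38.6% to 83.4% in GDF15-treated mice.

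GDF15 replicate 6 had the highest value of all 18 mice for 9 members, all but Mup20, and stood apart from its group. Its Mup7 count of 294185 was followed by 70855 in the next mouse. Without this library the log2 fold change of Mup7 was 3.86 (SE 0.90) against vehicle and 2.51 (SE 0.90) against pair-fed, that of Mup1 was 2.64 and 1.81, and that of Mup12 was 2.32 and 1.90. For Mup11 it was 2.55 and 2.02, and for Mup9 it was 2.25 and 1.60. Mup3 stood at 1.15 and 0.99, Mup21 at 0.51 and 0.20, and Mup20 at -0.83 and -0.97. Control libraries moved some values the other way. Without vehicle replicate 3, the log2 fold change against vehicle was 5.96 for Mup7, 4.18 for Mup11 and 2.74 for Mup17, and without pair-fed replicate 6 that of Mup11 against pair-fed was 3.78. Without GDF15 replicate 6, the 10-member sum was 0.27 higher than in vehicle and 0.11 higher than in pair-fed mice. In GDF15 replicate 6, summed hepatocyte markers were 2383579 normalized counts, above the 2030711 to 2306529 of the other GDF15-treated mice, and its macrophage and leukocyte markers were 2330, below their 2697 to 4615. The part of either in its Mup values was not tested.

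Pair-feeding alone gave no call for any member. Fitted log2 fold changes of pair-fed against vehicle were above 0 for all 10, from 0.15 for Mup20 and 0.16 for Mup3 to 1.35 (SE 1.00) for Mup7, with a median of 0.48. By DESeq2, 0 of 10 members passed an adjusted p of 0.05, the adjusted p being 0.998 for each, and 0 of 10 had an unadjusted p under 0.05. The quasi-likelihood test of edgeR called 0 members, and 0 of 10 had an unadjusted p under 0.05 by it. Over the whole table the percentage called was 0, while 718 genes, or 4.42%, had an unadjusted DESeq2 p under 0.05. Of 12992 genes tested with edgeR, 0 were called and 620 had an unadjusted p below 0.05. Values of pair-fed and vehicle mice overlapped for all 10 members, where 0.121% of 13207 genes lay higher without overlap. The 10-member sum was 0.17 higher on the log2 scale in pair-fed than in vehicle mice, within the SDs of both groups. The 16-gene sum of near-identical genes was 1.30-fold higher, with overlapping groups. Without vehicle replicate 3 the pair-fed against vehicle log2 fold change was 2.37 for Mup7, 1.26 for Mup11 and 1.12 for Mup17, and 0 members passed. With SEs of 1.00 for Mup7 and 0.94 for Mup12, differences of the size fitted there could not be told from the spread between mice.

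Mice of the same group differed widely, and the members did so together. Mup7 spanned 26.2-fold among vehicle mice, 48.9-fold among pair-fed mice and 32.8-fold among GDF15-treated mice, against 1.74-fold, 2.77-fold and 2.14-fold for Mup20. Vehicle replicates 3 and 6 and pair-fed replicate 6 were the high control mice for most members. After removal of group means, the Pearson r over 18 mice ran from 0.69 to 0.95 for the 21 pairs of near-identical members, with a median of 0.87. It ran from 0.33 to 0.59 for the 9 pairs with Mup20, with a median of 0.46, and from 0.75 to 0.94 for the other 15 pairs. These coefficients describe values that share libraries and size factors, and among near-identical genes they also share reads.

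Of 10873 non-member genes that averaged 50 or more normalized counts, those most like the 10-member sum within groups were Srd5a1, a steroid 5-alpha reductase (r = 0.92), Mup14 (0.87), the fatty acid elongase gene Elovl3 (0.87), Dock8 (0.86) and Pdilt (0.84). The most opposite were Grn, the progranulin gene (-0.83), Rad51b (-0.83) and the cytochrome gene Cyp2b9 (-0.83). With Mup20 left out of the sum, a choice made after the values had been seen, the leading gene was Hsd3b5, a 3-ketosteroid reductase of male liver (0.94), and the opposite ones were Rtn4 (-0.90), Dmpk (-0.89) and Uap1l1 (-0.89). Each r is over 18 mice and is a description.

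Among the 12 other Mup rows, 11 were fitted higher with GDF15 than with vehicle, and Mup5 was the exception at a log2 fold change of -0.04 (SE 0.25). The median of the 12 was 1.15 against vehicle and 0.78 against pair-fed. Mup22 was the most abundant of them, with medians of 98078 in vehicle, 125522 in pair-fed and 250569 in GDF15-treated mice. Its log2 fold change was 1.15 (SE 0.34) against vehicle and 0.96 (SE 0.34) against pair-fed. Mup14 had medians of 2415, 4679 and 10734, and Mup10 of 1116, 1818 and 2755. Mup4, Mup5 and Mup6, which stand outside the near-identical group, had highest values in any mouse of 11.4, 169 and 20.5.

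For the growth hormone pathway, 14 genes were examined, of which 4 rose and 1 fell with GDF15 against vehicle (DESeq2, adjusted p under 0.05), where 14.3% of all genes rose and 15.8% fell. Ghr, the growth hormone receptor, rose 1.22-fold (adjusted p = 0.0011), from a mean of 8595 ± 995 (SD, n = 6) to 10512 ± 718. Igf1, the main growth hormone-dependent hormone of the liver, rose 1.41-fold (adjusted p = 0.000341), and Igfals, which encodes a partner of IGF1 in serum, rose 1.80-fold (adjusted p = 0.00089). Igfbp2, an IGF-binding protein gene, rose 2.66-fold (adjusted p = 7.0e-16). Stat5a fell, with a log2 fold change of -0.33 (adjusted p = 0.018).

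The direct STAT5 targets Socs2 and Cish, which encode feedback inhibitors of the receptor, varied widely between mice. Socs2 ranged from 83.2 to 942 normalized counts in GDF15-treated and from 101 to 612 in vehicle mice, with a log2 fold change of 0.04 (SE 0.59, adjusted p = 0.97). Cish ranged from 71.9 to 1046 and from 68.8 to 858, at -0.10 (SE 0.72, adjusted p = 0.94). Stat5b, the transducer itself, had a log2 fold change of 0.14 (SE 0.11, adjusted p = 0.33). Against pair-fed, 3 of the 14 genes rose, Igfbp2, Igf1 and Igfbp1, and 0 fell, where 11.8% and 12.2% of all genes did. The median log2 fold change of the 14 was 0.31 and 0.24 in the 2 comparisons, beside 0.01 over all genes. The list holds the receptor, growth hormone-dependent genes and feedback inhibitors together. Neither its counts nor its medians therefore give the pathway a direction.

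Other genes that are higher in male than in female liver did not move as one. Of 16 present, 5 rose and 1 fell with GDF15 against vehicle, with a median log2 fold change of 0.33. Over all genes, 14.3% rose and 15.8% fell in that comparison. Hsd3b5 rose 38.9-fold (adjusted p = 0.000142), the organic anion transporter gene Slco1a1 9.54-fold (adjusted p = 0.00057) and Cyp7b1, an oxysterol hydroxylase gene, 2.60-fold (adjusted p = 1.5e-05). Elovl3 rose 2.88-fold and Susd4 2.50-fold, while the glutathione transferase gene Gstp1 fell with a log2 fold change of -0.41 (adjusted p = 0.0037). Against pair-fed, 3 rose, Hsd3b5, Cyp7b1 and Slco1a1, and 2 fell, Gstp1 and Gstp2, with a median of 0.05. There 11.8% of all genes rose and 12.2% fell. Without GDF15 replicate 6, which had 2361 normalized counts of Hsd3b5 against a group median of 108, 3 rose and 1 fell against vehicle, and 1 rose and 5 fell against pair-fed. Within groups the 15 genes that averaged 50 counts or more had a median r of 0.76 with the sum of the 9 members other than Mup20, with a range from 0.02 to 0.94.

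Genes that are higher in female liver were examined as the counterpart of that list. Of 25, 9 rose and 2 fell against vehicle, where 14.3% and 15.8% of all genes did, with a median log2 fold change of 0.35. In the comparison with pair-fed, 7 rose and 0 fell, beside 11.8% and 12.2% of all genes, with a median of 0.53. Cyp2c69 rose 37.1-fold from a mean of 2.35 normalized counts (adjusted p = 9.0e-09), A1bg 8.21-fold (adjusted p = 7.3e-11) and Slc22a26, a transporter gene, 7.17-fold (adjusted p = 7.0e-14). Cyp17a1, a steroid 17-hydroxylase gene, rose 1.78-fold. Slc22a27 and Cyp2c39 fell, with log2 fold changes of -0.59 and -0.44. Within groups, the 13 genes of this list that averaged 50 counts or more had r values from -0.78 to 0.32 with the same sum, with a median of -0.35. Cyp2c and Slc22a genes belong to families with close relatives, so their single values carry the same kind of uncertainty as those of the Mup genes.

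Of 19 transcription factors of hepatocytes, 9 rose with GDF15 against vehicle and 7 against pair-fed, and 0 fell in either. Among all genes, 14.3% rose and 15.8% fell against vehicle, and 11.8% rose and 12.2% fell against pair-fed. Hnf4a rose 1.45-fold (adjusted p = 3.9e-15), Foxa3 1.42-fold, Nfia 1.19-fold and the estrogen receptor gene Esr1 1.47-fold against vehicle. The median log2 fold change was 0.23 and 0.21 in the 2 comparisons, and 0 of the 19 exceeded an absolute value of 1 in either among those that passed.

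Lipocalins outside the Mup family were examined as relatives of the same fold. Of 10, the same 5 rose in both comparisons and 0 fell. The shares of all genes that rose were 14.3% against vehicle and 11.8% against pair-fed, while 15.8% and 12.2% fell. Against vehicle, Apom, which carries sphingosine-1-phosphate on lipoproteins, rose 1.51-fold (adjusted p = 3.1e-08), C8g, of the complement membrane attack complex, 1.42-fold, and Rbp4, the plasma carrier of retinol, 1.30-fold. Ambp rose 1.28-fold and Ptgds 4.45-fold, the latter from a mean of 8.82 normalized counts. Against pair-fed, the corresponding values were 1.51-fold for Apom, 1.36-fold for C8g, 1.29-fold for Rbp4, 1.29-fold for Ambp and 4.39-fold for Ptgds.

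Secreted plasma protein genes, the other large secretory output of hepatocytes, rose for 15 of 20 in each comparison and fell for 0. For all genes the shares were 14.3% up and 15.8% down against vehicle, and 11.8% up and 12.2% down against pair-fed. The median log2 fold change of the 20 plasma protein genes was 0.43 against vehicle and 0.42 against pair-fed. Ahsg, which encodes fetuin-A, rose 1.56-fold (adjusted p = 1.1e-13), the fibrinogen gene Fgb 1.66-fold and the antitrypsin genes Serpina1a, Serpina1c and Serpina1d 1.70-fold, 2.21-fold and 1.90-fold against vehicle. Mup20 lay on the other side of 0 from each of these, at -0.75. For pair-fed against vehicle, 0 genes of any of the 6 lists passed by DESeq2 or edgeR, and 3 male-biased and 4 female-biased genes had an unadjusted DESeq2 p under 0.05, with 0 in the other 4 lists.

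**Figure D4:**
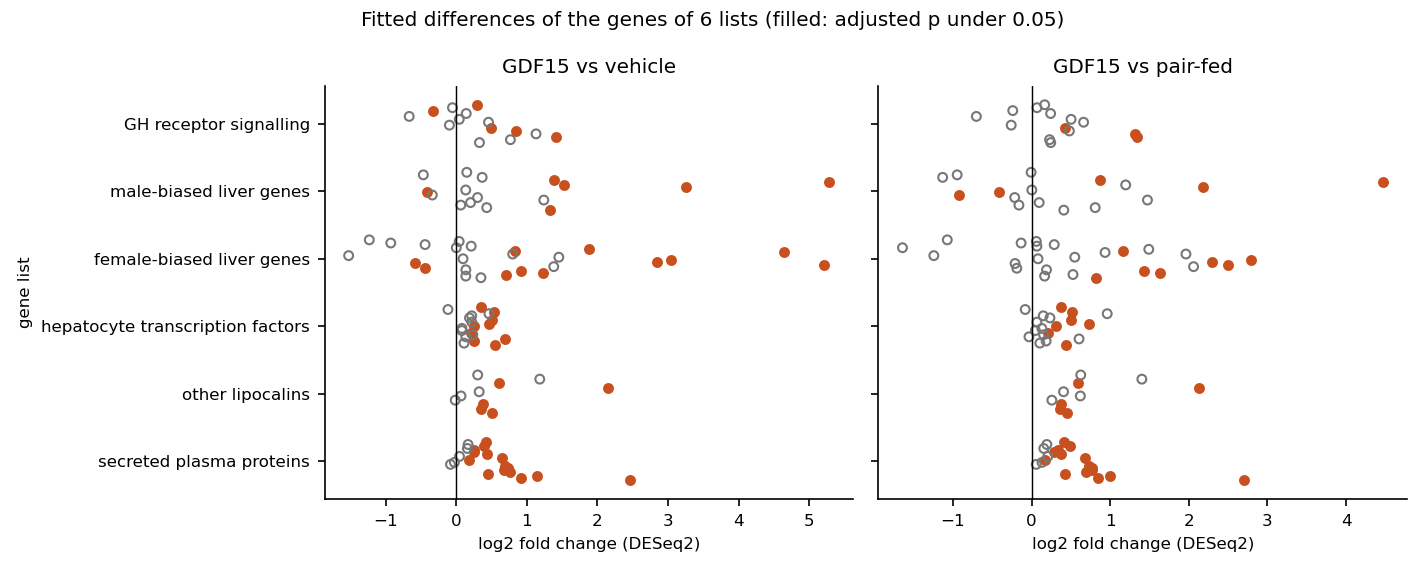
Fitted log2 fold changes of the genes of 6 lists, 1 point per gene, for GDF15 against vehicle (left) and against pair-fed (right). Filled points passed an adjusted p of 0.05. Hepatocyte transcription factors and plasma protein genes lie mostly just above 0, with medians of 0.23 and 0.43 on the left, while the male-biased and female-biased lists spread on both sides of 0.

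The 3 nearest genes of the table on each side of the Mup cluster were read as neighbours outside the family. Slc46a2, which the annotation places nearest on one side, was not analysed here. Snx30, Inip and E130308A19Rik on one side and Zfp37 and Slc31a2 on the other did not pass in either GDF15 comparison. Fkbp15 rose 1.14-fold against vehicle (adjusted p = 0.0063) and was not called against pair-fed (adjusted p = 0.21).

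Markers of cell types moved with the GDF15 group. Their counts stand beside 14.3% of all genes that rose and 15.8% that fell against vehicle, and 11.8% and 12.2% against pair-fed. Of 6 hepatocyte markers, 5 rose in both comparisons, and their summed normalized count was 1430064 to 1841353 in vehicle, 1285763 to 2069867 in pair-fed and 2030711 to 2383579 in GDF15-treated mice. Alb supplied most of that sum, at means of 1231856, 1237371 and 1646873 in the same order. Alb, Apoa1 and Ttr are also in the plasma protein list and Hnf4a in the transcription factor list. Of 6 stellate cell markers 5 fell in both comparisons, with sums of 6026 to 9854, 5376 to 8244 and 3114 to 4646. Of 6 macrophage and leukocyte markers, 5 fell against vehicle and 4 against pair-fed, and of 5 cholangiocyte markers 5 fell against vehicle and 0 against pair-fed. Of 5 sinusoidal endothelial markers, 1 rose against vehicle and 0 passed against pair-fed, and the 3 adipocyte markers present summed to at most 6.82 normalized counts. In bulk tissue, fewer cells of a type and less RNA per cell cannot be told apart, and the part of cell composition in the Mup values was not tested. Referred to the Alb count of the same library, the 10-member sum differed by 0.09 on the log2 scale between GDF15 and vehicle. It differed by -0.08 between GDF15 and pair-fed, and the values by the size factors were 0.52 and 0.35. Alb itself was higher with GDF15, at log2 fold changes of 0.42 against vehicle and 0.41 against pair-fed (DESeq2, adjusted p = 0.0011 and 0.0017). That rise lowers any value referred to Alb. Whether it came from more hepatocyte RNA in the tissue or from more Alb per hepatocyte was not tested. Such values therefore cannot be read as a level per hepatocyte.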

How the data were processed

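Liver RNA of 18 mice, 6 per group, was sequenced with a strand-specific kit as paired reads of 50 bases. Per the labels and the study's methods, the authors trimmed reads with Trim Galore and estimated counts with Salmon, and they deposited whole-number estimated counts for 16245 genes. The build listed is mm10, and tool versions are not given in the sources used here. The deposited counts were fitted with DESeq2 1.42.0 (R 4.3.3) over all 18 samples with group as the only term, median-of-ratios size factors, Wald tests and Benjamini-Hochberg adjustment. The quasi-likelihood test of edgeR 4.0.16 was an alternative. A difference passed at an adjusted p under 0.05. Sums were compared as log2(sum + 1). Groups were checked for overlap over 13207 genes with at least 10 counts in 6 samples.

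The members and gene lists were chosen with earlier results of these data known. Named were all members, genes of each list that passed with the lowest p, up to 5 per direction, fixed genes of the growth hormone list, the genes most like and most unlike the summed level, and the 3 nearest genes on each side of the cluster that the table held. Sequence groups were built from GENCODE M21 coding sequences, since proteins were not used here. The labels do not say whether mice of a group shared a batch, so p-values measure the spread between these mice. Scripts were tested on simulated data. Single values of some list genes that the naming rule would give are not reported here.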

Additional observations from a re-analysis of the deposited data

Results flagged for a closer look

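Of 36 groups of 6 values examined (10 members and 2 sums in 3 groups), 11 held a value far from the rest. In these, the gap divided by the range exceeded Dixon's critical value of 0.625. The ratio was taken on normalized counts, not on their logarithms. Chance would give about 1.8 for normally distributed values, but these counts are skewed, so no excess over chance is read from the 11. The values share mice and reads and are not independent. GDF15 replicate 6 was such a value for Mup1 (13110 normalized counts, with 2632 in the next mouse), Mup7 (294185, with 70855 next), Mup11 (60740, with 16659 next), Mup12 (4651, with 813 next) and Mup16 (1830, with 845 next). The same library stood apart in the sum of the 10 members (688384, with 331958 next) and in the sum without Mup20 (573583, with 229709 next). Pair-fed replicate 6 stood apart for Mup11 (7748, with 1958 next), Mup17 (6078, with 2604 next) and the sum without Mup20 (120927, with 70271 next). Vehicle replicate 3 stood apart for Mup17 (5947, with 2427 next).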

How the results depend on the processing

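For 24 results, 612 values were recomputed under other settings, and 599 kept their direction and their side of the threshold or stayed close to the reported value. For the 10-member sum, the median of the single-gene log2 values gave 2.18 against vehicle and 1.56 against pair-fed, and the sum without Mup20 gave 1.93 and 1.61. By construction, these give the abundant Mup20 less or no weight. Asking also for an absolute log2 fold change above 1 left, against vehicle, 1 growth hormone pathway gene, 6 female-biased genes, 0 transcription factors, 1 lipocalin and 2 plasma protein genes, and against pair-fed 2 male-biased genes, 0 transcription factors, 1 lipocalin and 1 plasma protein gene.

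Leaving out 1 library at a time, the 10-member sum differed by 0.27 to 0.66 against vehicle, by 0.11 to 0.49 against pair-fed and by 0.06 to 0.27 between pair-fed and vehicle, and 9 to 9 members stayed higher in each GDF15 comparison. Between pair-fed and vehicle, the differences of Mup3, Mup11, Mup12 and Mup17, none of them called, were -0.00, -0.32, -0.04 and -0.08 without pair-fed replicate 6. Genes passing numbered 4 to 6 and 2 to 4 for the growth hormone pathway (against vehicle and pair-fed), 4 to 7 and 4 to 6 for male-biased genes, 8 to 11 and 7 to 9 for female-biased genes, 7 to 10 and 6 to 9 for transcription factors, 5 to 7 and 5 to 5 for other lipocalins and 14 to 17 and 15 to 17 for plasma protein genes. For pair-fed against vehicle they numbered 0 to 0 in every list. These counts take rises and falls together. For male-biased genes against pair-fed, 1 rose and 5 fell without GDF15 replicate 6, where 3 rose and 2 fell with all libraries. The 10-member sum differed by 0.20 against vehicle in replicates 1 to 3 and by 0.83 in replicates 4 to 6, and against pair-fed by 0.02 and 0.67. Replicates 4 to 6 include GDF15 replicate 6, which had the highest sum of all mice. The labels give the replicate numbers no meaning.

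Mice with the same replicate number were not treated as pairs. Their deviations correlated above 0.1 in 2, 3 and 3 of 6 pairs in the 3 comparisons. Between pair-fed and vehicle, same-numbered mice had a mean r of 0.16 and a highest r of 0.50, beside a mean of -0.03 for other numbers. Whether same-numbered mice shared a batch was not tested. With replicate as a block the 10-member sum differed by 0.52, 0.35 and 0.17, and 9, 9 and 0 single members were counted as before. Every group held the same replicate numbers, so the block could not change the differences of the sum.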
